A study of Mus musculus with 2 samples.

Results

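The distal Dlk1-Dio3 cluster is a run of miRNA genes on mouse chromosome 12, from Mir379 to Mir410. The rule for its members used gene symbol and position. Of 36 listed genes, 35 had a row in the count tables, which held 1973 gene rows in all, and no row carried the identifier of Mir376b. On the GRCm38 assembly the 35 genes lay between positions 109709060 and 109743795, a span of 34.7 kb, with gaps of 20 to 4368 bp between neighbouring members (median 556 bp).

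Small RNA was sequenced from the embryonic facial prominence, the tissue of the developing face and jaws, of healthy B6NCrl mouse embryos at embryonic day 12.5. The study held 1 group with 2 biological replicates, and no treatment, genotype or second tissue was compared. Each library came from a pool of embryos of both sexes, 120 embryos for replicate 1 and 88 for replicate 2, so the spread between embryos was not measured. The question addressed here is how strongly each gene of the cluster was represented in this tissue and how far the 2 pools differed.

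Dlk1-Dio3 is an imprinted region, in which the parent of origin decides which chromosome copy is used. Its protein-coding genes Dlk1, Rtl1 and Dio3 are expressed from the paternal chromosome, and its long noncoding RNAs and miRNAs, including this cluster, from the maternal chromosome. Each miRNA gene gives an RNA hairpin, from which short mature strands are cut, 1 from the 5′ arm (5p) and 1 from the 3′ arm (3p). A mature strand recognises messenger RNAs mainly through its seed, bases 2 to 8. The cluster is known from the embryo, the placenta and the brain, and part of it lies within the noncoding gene Mirg.

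Mature sequences came from RefSeq (build GRCm38.p6), which held at least 1 mature strand for all 36 listed genes, 67 strands with 62 different seeds. Entries for miR-376c-3p, miR-485-5p, miR-487b-3p and miR-539-3p were not among them, and the counts of seeds and motifs given here cover the 67 strands. The first set shows strands of 6 of the 7 highest genes, and those of Mir412, a low gene that lies between Mir409 and Mir369. The remaining one of the 7, Mir379, is in the second set. All sequences run 5′ to 3′, and capitals mark the seed.
miR-487b-5p: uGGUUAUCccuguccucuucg
miR-411-5p: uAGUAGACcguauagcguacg
miR-409-5p: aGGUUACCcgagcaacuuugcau
miR-409-3p: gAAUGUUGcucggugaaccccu
miR-412-5p: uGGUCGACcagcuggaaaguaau
miR-412-3p: uUCACCUGguccacuagccg
miR-369-5p: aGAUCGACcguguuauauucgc
miR-369-3p: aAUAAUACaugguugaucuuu
miR-382-5p: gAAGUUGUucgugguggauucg
miR-541-5p: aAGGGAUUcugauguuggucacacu
The 10 strands printed here had 10 different seeds, which follows from the choice of strands. The set leaves out miR-411-3p, which shares its seed with miR-379-3p and is printed in the second set.

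Strands with the same seed can recognise overlapping sets of messenger RNAs, so the second set shows the 5 seeds that occurred in 2 members each. They are printed pair by pair, again with the seed in capitals.
miR-379-3p: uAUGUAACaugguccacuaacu
miR-411-3p: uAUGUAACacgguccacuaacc
miR-379-5p: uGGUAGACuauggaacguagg
miR-1193-5p: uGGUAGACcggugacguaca
miR-758-5p: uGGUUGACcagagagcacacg
miR-1197-5p: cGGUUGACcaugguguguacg
miR-494-5p: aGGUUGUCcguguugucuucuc
miR-410-5p: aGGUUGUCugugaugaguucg
miR-376c-5p: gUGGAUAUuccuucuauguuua
miR-376b-5p: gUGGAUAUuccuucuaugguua
The pairs involved 9 genes, since Mir379 shared 1 seed with Mir411 and another with Mir1193.

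The libraries held 11414919 and 12792420 reads, of which 42.0% and 47.0% were counted on miRNA genes, 25.7% and 19.4% were unmapped and 26.0% and 27.9% mapped to several places and were given to no gene. Levels are in CPM, a gene's count divided by the library's sum over miRNA genes (4789909 and 6014982) and scaled to 1000000. They were not divided by length, because each read stands for 1 short mature strand, and whether equal CPM means equal amounts for 2 different miRNAs was not tested. In marker lists for the tissue, 6 of 6 mesenchyme and cartilage genes were detected and held 6.37% and 6.33% of the counts, and 7 of 7 epithelial genes held 3.04% and 3.53%. Other cell types were present as well, with the endothelial Mir126a at 2.86% and 2.68%, 3 of 3 erythroid genes at 0.0220% and 0.0326%, and 2 of 5 striated muscle genes at 0.107% and 0.148%. Of 11 neural genes, 7 were detected, at 0.148% and 0.138%, with Mir9-2 and Mir124a-1 at 0. Mir9 and Mir124 (neural), Mir1a and Mir133a (striated muscle) and Mir199a (mesenchyme) have several gene copies. The rule on reads with several places can lower the counts of such genes, and its part in the values of these lists was not tested. Which cells gave the reads of the cluster was not tested, and in a bulk tissue more cells of a type and more RNA per cell cannot be told apart.

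The cluster held 321997 counts in replicate 1 and 381416 in replicate 2. That was 6.72% of the miRNA gene counts in replicate 1 (exact Clopper-Pearson 95% interval 6.70 to 6.74) and 6.34% in replicate 2 (6.32 to 6.36), a mean of 6.53% ± 0.270 (SD, n = 2). The intervals do not overlap, but they cover counting error only and not the spread between pools. No molecular identifiers were used, so repeated reads of 1 molecule were not told apart. With at least 10 counts in both libraries as the limit, 32 of the 35 genes were detected, against 398 of all 1973 gene rows. The median over the 32 detected genes was 815 CPM in replicate 1 and 641 CPM in replicate 2. The 366 other detected genes had medians of 108 and 110 CPM, and 27 and 26 of the 32 cluster genes lay above them. Among all genes, 6 of the cluster ranked in the top 50 and 15 in the top 100.

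A group of 3 genes stood level at the top of the cluster. Mir487b had 9045 CPM in replicate 1 and 9119 CPM in replicate 2 (9082 ± 51.9, SD, n = 2). Mir411 had 9600 and 8470 CPM (9035 ± 799). Mir409 had 9561 and 8430 CPM (8995 ± 799). Each of them was highest or second in at least 1 library, and their ranges overlap, so their order was not resolved. Together they made up 42.0% and 41.0% of the cluster's counts (41.5% ± 0.655).

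A second tier of 4 genes lay between 4731 and 5477 CPM. Mir369, whose 3p strand is known for binding AU-rich elements of messenger RNA, had 6341 CPM in replicate 1 and 4612 CPM in replicate 2 (5477 ± 1223). Mir382 had 5450 and 4839 CPM (5144 ± 432). Mir379, the first gene of the cluster, had 4785 and 4817 CPM (4801 ± 22.4). Mir369 had the largest SD of all cluster genes on the CPM scale, while Mir379 was nearly level between the pools. Mir541 had 4495 and 4967 CPM (4731 ± 334), so that replicate 2 was the higher library for this gene and replicate 1 for Mir369 and Mir382.

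The next genes were lower. Mir381 had 2450 and 2799 CPM (2624 ± 246), Mir376a had 2065 and 2542 CPM (2303 ± 338) and Mir299a had 1837 and 1880 CPM (1859 ± 30.3). Mir376a belongs to the miR-376 family, whose transcripts are known targets of A-to-I RNA editing in the brain. In all 3 genes replicate 2 was the higher library. The same 10 genes were the highest in both libraries and held 82.8% of the cluster's counts in each.

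**Figure D1:**
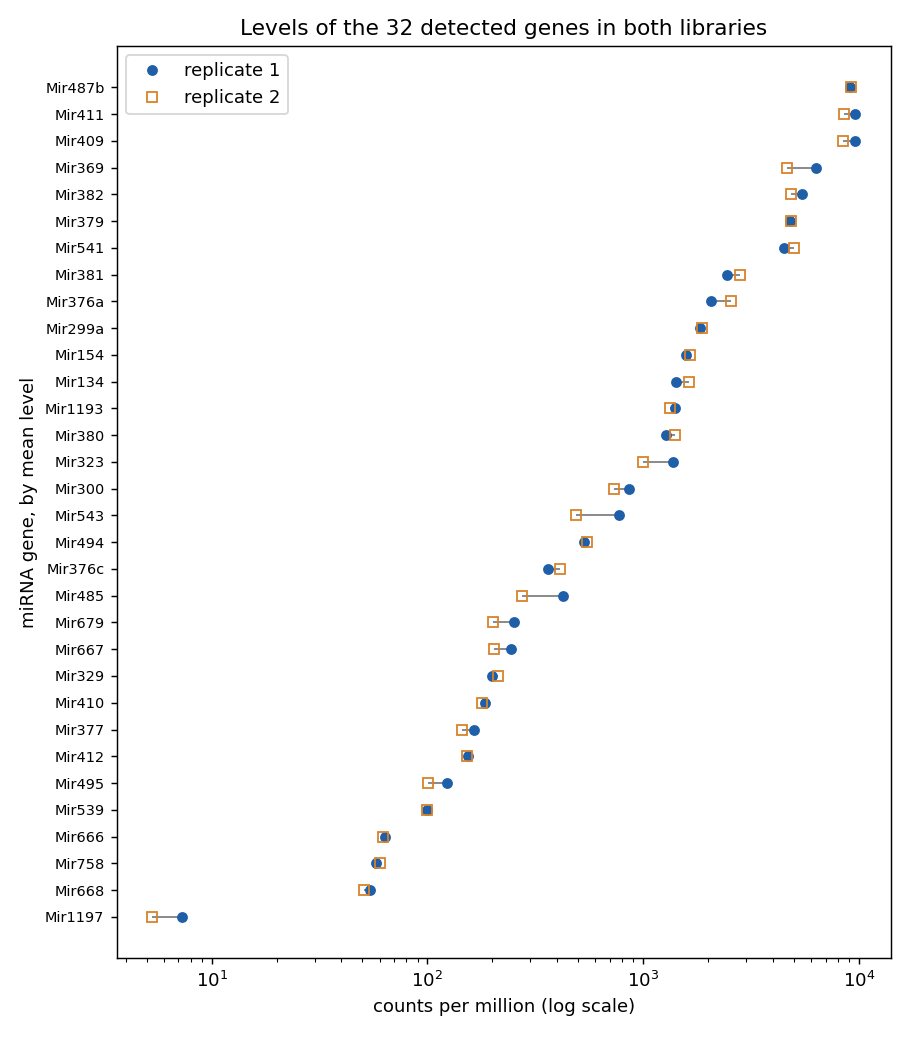
Level of each detected gene of the cluster in CPM (log scale), 1 point per library, sorted by mean. The 2 libraries lie close together at every level, from Mir487b at 9082 CPM to Mir1197 at 6.31 CPM.

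Levels within the cluster spanned a 1438-fold range, from Mir487b to Mir1197, the lowest detected gene. By mean level, 15 genes had at least 1000 CPM and held 93.5% of the cluster's counts. Another 12 genes, from 112 to 795 CPM, held 6.05%, and 4 genes from 52.4 to 99.4 CPM held 0.420%. The last 4 genes were below 10 CPM and held 0.0127%. The 12 genes of the middle class, in falling order, were Mir300, Mir543, Mir494, Mir376c, Mir485, Mir679, Mir667, Mir329, Mir410, Mir377, Mir412 and Mir495. Mir134, a regulator of dendritic spine size in neurons, was in the highest class with 1424 and 1635 CPM (1530 ± 150), together with Mir154, Mir1193, Mir380 and Mir323.

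**Figure D2:**
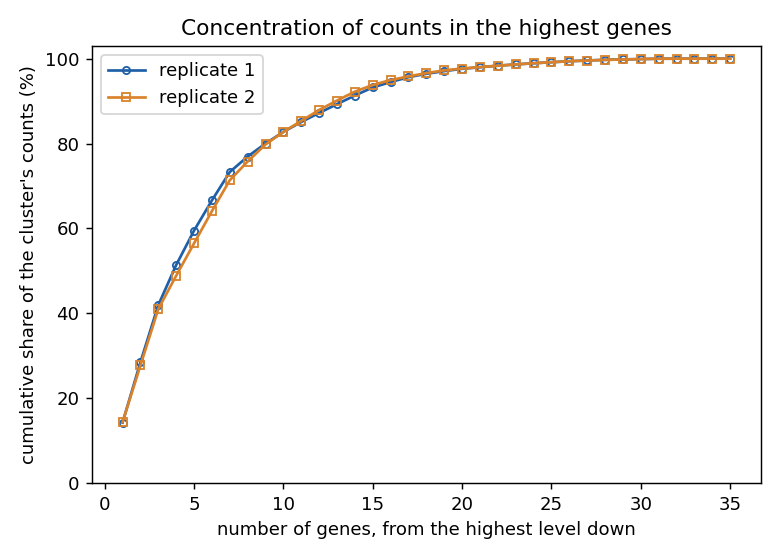
Cumulative share of the cluster's counts (percent) against the number of genes, added from the highest to the lowest, 1 line per library. The lines nearly coincide, with 41.5% of the counts on average in 3 genes and 82.8% in 10.

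At the low end, Mir1197 had 35 counts in replicate 1 and 32 in replicate 2 (6.31 ± 1.41 CPM). Mir544 had 8 and 11 counts, and Mir654 had 0 and 3. Mir453 had 0 counts in both libraries, which allows levels of up to 0.626 and 0.499 CPM. Mir544, Mir654 and Mir453 did not reach 10 counts in both libraries and were left out of the tests and medians.

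Neighbours in the order of levels were compared with the spread between pools, a common coefficient of variation of 0.189 over all detected genes. Genes had to differ at least 1.45-fold, with no overlap of their values, to count as separated. Of 31 neighbouring pairs, 6 were separated and 25 were not. The steps came below Mir409, Mir541, Mir323, Mir485, Mir539 and Mir668. The largest was the 8.30-fold step from Mir668 (52.4 CPM) down to Mir1197, and the smallest of the 6 was the 1.49-fold step from Mir323 (1181 CPM) to Mir300 (795 CPM).

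Of the 35 genes, 4 were read on the strand opposite to their annotated row. The rows Mir299b, Gm25750, Gm25252 and Gm24321 are annotated on the minus strand, and their opposite-strand reads lie on Mir299a, Mir380, Mir376a and Mir409. Gm24321 (Mir409) held 45795 and 50707 opposite-strand counts, and 0 on its own strand in both libraries. Gm25252 (Mir376a) held 9889 and 15292, and Gm25750 (Mir380) held 6106 and 8476, each with 0 on its own strand. Mir299b (Mir299a) held 8801 and 11310 opposite-strand counts beside 19 and 23 on its own strand. Together the 4 genes made up 21.9% and 22.5% of the cluster's counts.

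RefSeq lists a mature strand for both sides of that locus. They are shown because the reads of this row lay on both strands, and capitals mark the 18 bases they share from the 5′ end.
miR-299a-3p: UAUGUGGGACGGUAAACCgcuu
miR-299b-3p: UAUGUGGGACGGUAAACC
The shorter strand is contained whole in the longer one, so a read of these 18 bases alone does not tell them apart by sequence. Reads that map to several places were given to no gene, and whether such reads are missing from the counts of this row was not tested.

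Hairpins that lie side by side often had very different counts. Members next to each other in order of position gave 28 pairs with both genes detected. In 1 of them, Mir154 and Mir377, the gene Mir496a, not a member, lies between. The downstream gene differed from the upstream one in the same direction in both libraries in all 28. The counts of 14 pairs differed at least 5-fold in both libraries, and those of 10 pairs at least 10-fold. The median difference was 5.90-fold in replicate 1 and 5.14-fold in replicate 2. For the 14 pairs no more than 500 bp apart it was 10.04-fold and 7.23-fold. Pairs of members that are not side by side were not measured in this way, and levels over the cluster spanned a 1438-fold range. Whether neighbours differ more than other pairs of members was therefore not tested.

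The steepest changes lay at both sides of Mir1197. Mir380 is 426 bp upstream of it and was 174-fold higher in replicate 1 and 265-fold higher in replicate 2. Mir323 is 71 bp downstream and was 187-fold higher in both. These folds rest on the 35 and 32 counts of Mir1197, so they carry its counting error, and their direction was the same in both libraries.

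A similar alternation ended the cluster. Mir409 (positions 109743158 to 109743237) was 61.9-fold and 55.4-fold higher than Mir412 (109743289 to 109743368), 51 bp downstream. Mir369 (109743418 to 109743496), 49 bp further on, was 41.0-fold and 30.3-fold higher than Mir412. Mir410 (109743715 to 109743795), 218 bp after Mir369, was 34.2-fold and 25.8-fold lower than Mir369. High and low genes thus followed each other within less than 1 kb. In the middle of the cluster, Mir487b (109727333 to 109727414) stood 90.8-fold and 91.9-fold above Mir539, 714 bp downstream.

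**Figure D3:**
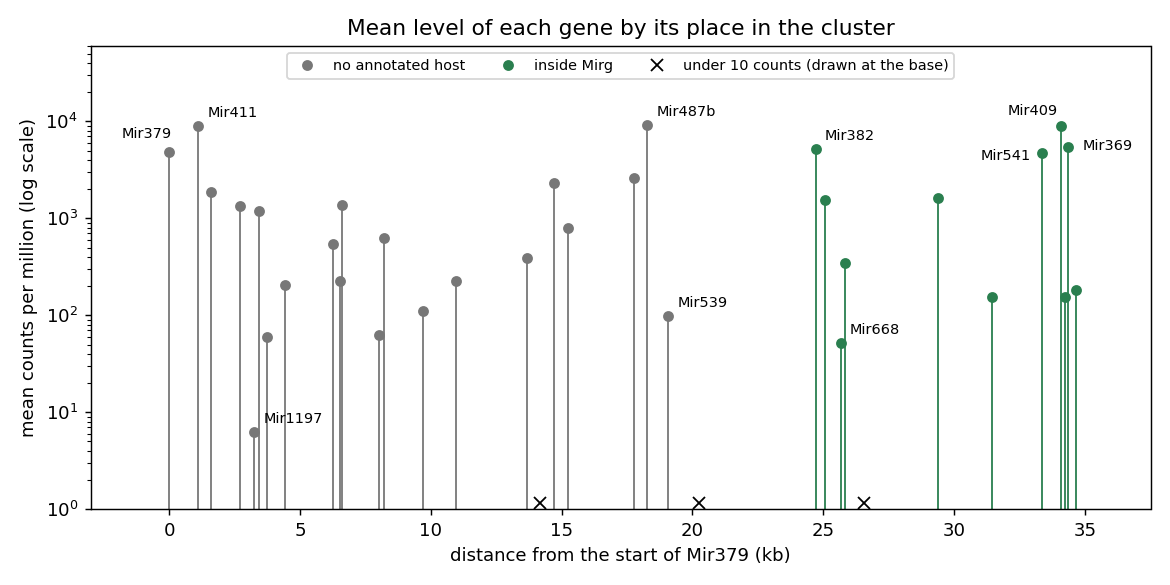
Mean level of each gene (CPM, log scale) against its distance from the start of Mir379 (kb). Colour gives genes inside Mirg and genes with no annotated host, and crosses at the base are the 3 genes under 10 counts. High and low genes lie close together in several places, without a strict alternation along the cluster. Genes of the top tiers lie at both ends (Mir379 at 4801 CPM and Mir369 at 5477 CPM).

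Position along the cluster had no steady relation to level. Spearman's rho between position and mean level was 0.05 over the 32 detected genes, given as a description because the genes share libraries. In the annotation used (GENCODE M21), 12 genes lay within Mirg, 4 in an exon, 4 across the edge of an exon and 4 in an intron. The 11 detected among them held 44.4% of the cluster's counts in replicate 1 and 42.5% in replicate 2, with medians of 1424 and 1635 CPM. The 21 detected of 23 genes with no annotated host had medians of 776 and 547 CPM. Genes inside Mirg ranged from Mir409 at 8995 CPM to Mir453 at 0, and those outside from Mir487b at 9082 CPM to Mir654 with 0 and 3 counts, so the ranges of the classes overlap almost entirely.

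The 2 pools differed little over the cluster. At a limit of 2-fold and an adjusted p under 0.05 (two-sided exact binomial test on TMM library sizes, Benjamini-Hochberg over 398 genes), 0 of the 32 genes were called, against 4.02% of all detected genes. The test compares these 2 libraries, not conditions, and covers counting error alone. The count at an unadjusted p under 0.05 with no limit on size was 20 of 32, against 54.5% of all 398 genes. edgeR's exact test with an assumed coefficient of variation of 0.2 called 0 of the 32 genes and 2 of all 398.

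With no limit on size, 20 of the 32 genes differed beyond counting error (62.5%), against 52% of all detected genes. Of these, 13 were higher in replicate 1 (40.6% of the 32, against 24.9% of all detected genes) and 7 in replicate 2 (21.9%, against 27.1%). The median log2 ratio of replicate 2 to replicate 1 was -0.04 over the 32 genes and 0.00 over all 398. The median size of the log2 ratio, whatever its sign, was 0.18 in the cluster and 0.23 over all genes. Within 1.5-fold of each other lay 30 of the 32 genes (93.8%) and 345 of the 398 (86.7%). The test picks up smaller differences at higher counts, and ratios from high counts carry less counting error. The cluster's medians were 815 and 641 CPM, against 108 and 110 CPM for the other detected genes. Neither these values nor the shares of the tests above were matched for level, so whether they are particular to the cluster was not tested. Ranks moved by at most 3 places between the libraries (Spearman's rho 0.992 over 32 genes).

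The 2 genes outside 1.5-fold were Mir543 and Mir485. Mir543 had 3715 counts in replicate 1 and 2949 in replicate 2, or 776 and 490 CPM. Its log2 ratio was -0.67 (95% interval -0.74 to -0.60, counting error only; exact binomial test, adjusted p = 1.82e-78). Mir485, which is known to act at synapses of neurons, had 2037 and 1641 counts, or 425 and 273 CPM. Its log2 ratio was -0.65 (-0.74 to -0.55; exact binomial test, adjusted p = 3.87e-41). Both were lower in replicate 2, in counts as well as in the log2 ratio, which is already scaled for library size.

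Mir369 (log2 ratio -0.47, interval -0.49 to -0.44) and Mir323 (-0.46, interval -0.52 to -0.41) were also lower in replicate 2. The highest ratio was that of Mir376a, at 0.29 (0.26 to 0.33). Mir411 and Mir409 had the same ratio, -0.19 each, while Mir487b was at 0.00. Mir1197 also had a ratio of -0.46, but with an interval of -1.20 to 0.27 it could not be told from no difference at this depth. Immediate neighbours could move apart, as Mir543 (-0.67) and Mir666 (-0.03), whose hairpins are 74 bp apart.

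**Figure D4:**
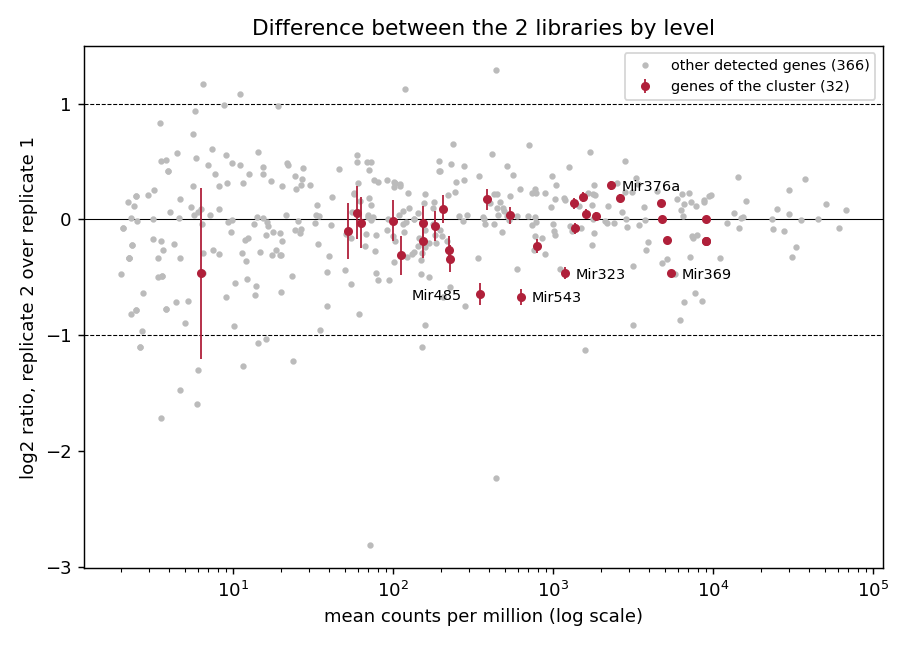
Log2 ratio of replicate 2 to replicate 1 against mean level (CPM, log scale) for the 32 detected genes of the cluster, with 95% intervals for counting error, and the 366 other detected genes. Dashed lines mark 2-fold, and no gene of the cluster lies beyond them.

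Genes with a common seed did not have a common level. Mir379 and Mir411, which share the 3p seed shown above, had 4801 and 9035 CPM, so that Mir411 was 2.01-fold higher in replicate 1 and 1.76-fold in replicate 2. Mir1193, which shares the 5p seed of Mir379, had 1398 and 1331 CPM (1365 ± 47.7). Mir758 (57.8 and 60.5 CPM) and Mir1197 share a 5p seed and were both among the lowest detected genes. Mir494 had 531 and 547 CPM and Mir410, with the same 5p seed, 185 and 179 CPM. Mir376c, at 363 and 411 CPM, shares its 5p seed with Mir376b. The count of a gene joins both arms, so how much of it came from the strand with the common seed is not known from these tables.

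Seeds were also compared with the other mouse miRNAs of RefSeq, and 11 strands had a seed that occurs outside the cluster. Among the detected genes with such a seed, Mir1983 (3817 CPM) has that of miR-412-3p, and Mir412 had 153 CPM. Mir362 (242 CPM) has the seed of miR-329-3p, and Mir329 had 205 CPM. Mir672 (168 CPM) has that of miR-377-5p, and Mir377 had 155 CPM. Mir370 (769 CPM), a gene of the proximal part of the same imprinted region, has that of miR-1193-3p. The seed of miR-453, whose gene had 0 counts, also occurs in miR-496a-5p, and Mir496a, which lies inside the span of the cluster, had 134 CPM.

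Hairpin sequences were aligned with each other, without a comparison with hairpins from elsewhere in the genome. Over 630 pairs the median identity of the hairpin sequences was 56.1%, and 22 pairs reached 75%. Mir376b and Mir376c were the closest, at 86.6%. Mir543 and Mir495, at 84.1%, are direct neighbours, and Mir543 was 6.26-fold higher in replicate 1 and 4.89-fold in replicate 2. Mir494 and Mir154, at 81.8%, differed 2.96-fold and 2.99-fold, with Mir154 the higher. Mir381 and Mir300, at 78.7%, differed 2.86-fold and 3.81-fold, with Mir381 the higher. Mir758 and Mir411, at 75.3%, differed 166-fold and 140-fold.

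A stretch of 20 bases or more occurred in another miRNA gene for 4 members with a row, Mir411 and Mir758 with each other, and Mir376c and Mir487b with Mir376b. Reads that map to several places were given to no gene. The stretches were searched in whole hairpins and need not lie in a mature strand, so whether they lowered the counts of these 4 was not tested. With the Mir299 locus described above set aside, no mature strand in the table lay whole within the hairpin of another gene, and the longest stretch in common with another hairpin was 18 bases.

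A short run at or just after the end of the seed recurred in 3p strands. The letters ACACGG or ACAUGG, read on the mature strand only, occurred in 9 of 67 strands of the cluster (13.4%) and in 22 of 1605 other mouse mature strands (1.37%). The run was picked after the sequences had been read, so these shares are a description. The set shows it, in capitals, in genes from the highest to the lowest level class.
miR-411-3p: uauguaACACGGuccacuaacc
miR-369-3p: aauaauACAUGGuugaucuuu
miR-379-3p: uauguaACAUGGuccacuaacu
miR-154-3p: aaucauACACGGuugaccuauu
miR-323-3p: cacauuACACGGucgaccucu
miR-494-3p: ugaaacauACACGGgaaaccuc
miR-485-3p: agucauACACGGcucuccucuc
miR-495-3p: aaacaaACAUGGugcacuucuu
miR-1197-3p: uaggacACAUGGucuacuucu
The genes of these strands ranged from 9035 CPM (Mir411) to 6.31 CPM (Mir1197), nearly the whole range of the cluster.

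The nearest comparison was with the proximal miRNA genes of the same region, around Rtl1. Of 22 listed, 18 had a row and 15 were detected, with 2.43% and 2.29% of the counts. Those without a row were Mir136, Mir3070-1, Mir3070-2 and Mir3544, so their reads are missing from the proximal sum. The distal cluster, with 32 detected genes against 15, held 2.77 times as many counts as the proximal genes in both libraries. The distal sum includes the 4 rows read on the opposite strand, while all proximal rows were read on their own strand. With own-strand counts for every member the distal share was 5.16% on average, so the ratio depends on this choice. How far opposite-strand reads of the proximal rows would raise the proximal share was not tested. Medians over detected genes were 815 and 641 CPM in the distal cluster and 806 and 732 CPM in the proximal list, so neither was the higher in both libraries. The highest proximal genes, Mir127 (7959 ± 502 CPM) and Mir431 (7368 ± 490 CPM), lay between Mir409 and Mir369 of the distal cluster. In the proximal list 0 of 15 genes were called at 2-fold, against 4.02% of all detected genes. Beyond counting error 10 of 15 differed, against 52% of all, again without a match for level.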

How the data were processed

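Per the library descriptions, the authors aligned the reads to mm10 with GENCODE annotation M4 and deposited, for each library, raw read counts by miRNA gene as whole numbers. The aligner, counter and adapter trimming are not given in the sources used here. Members and lists were chosen with earlier results of these data known. Symbols and positions (1-based) came from GENCODE M21. The version of the identifier was the same in the tables for 22 of the 35 members and differed for 13. Own-strand counts were used, except for the 4 rows read on the opposite strand, and unmapped, multimapped and non-gene reads (25.7%, 26.0% and 5.57% of replicate 1; 19.4%, 27.9% and 4.72% of replicate 2) stayed out of the library sums. Detection needed 10 counts or more in each library (2.09 and 1.66 CPM). A count of 0 allows 3 counts. The libraries were compared gene by gene with a two-sided exact binomial test (SciPy 1.17.1, Benjamini-Hochberg with statsmodels 0.14.6, adjusted p under 0.05 and at least 2-fold) on TMM library sizes from edgeR 4.0.16 (R 4.3.3), which also gave the common coefficient of variation. edgeR's quasi-likelihood test has no residual degrees of freedom with 1 library against 1. The scripts were tested on simulated data. Hairpins were aligned with Biopython 1.88. Named in full were the 10 highest members, those read on the opposite strand, those called different or under 10 counts, and those sharing a seed or 20 bases with another gene. Other members were named after their values were seen. Alternatives covered strand, denominator, normalisation (DESeq2 1.42.0 size factors), count minimum, fold limit, test and each library left out.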

Additional observations from a re-analysis of the deposited data

Results flagged for a closer look

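The row of Mir299b was read on the strand opposite to its annotation, and the reads on its own strand were left out of the main counts. They entered only the alternatives with both-strand or own-strand counts. There were 19 of them in replicate 1 and 23 in replicate 2, above the 3 counts that a count of 0 allows, beside 8801 and 11310 on the opposite strand. The other 3 rows read in this way had 0 reads on their own strand in both libraries. The identifier of the Mir299b row has version 1 in the tables and version 2 in GENCODE M21, and whether the strand of the annotation changed between them was not tested.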

How the results depend on the processing

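The share of the cluster, 6.53% on average, was 5.16% with own-strand counts for every member, 4.68% without the 4 members that share sequence and 2.90% of all reads of the library. With each library left out it lay between 6.34% and 6.72%, and with both-strand counts at 6.41%. The number of members called different between the libraries, 0 at 2-fold, was 2 at 1.5-fold and 20 with no limit on size. It stayed 0 with DESeq2 size factors, library sums alone, a minimum of 1 count, edgeR's exact test at a coefficient of variation of 0.2 or 0.4, and own-strand counts for every gene. The log2 ratio of largest size in the main comparison was -0.67, short of the 2-fold limit. The choice of test therefore could not have changed this 0, and the 0 says nothing about the tests. The 5 highest members of each library, 4 of them the same in both, held a mean of 58.0% of the cluster's counts, and 66.3% with own-strand counts for every gene. The median level of 714 CPM was 315 when scaled to all reads of the library and 539 over all members whatever their count. Leaving out a library gave 641 to 815 CPM, 32 to 33 detected members and a share of 56.5% to 59.5% for the 5 highest. The median log2 ratio between the libraries stayed between -0.07 and -0.02. Of 22 values of single members under other strand or denominator choices, 17 stayed within 1 SD and 5 moved further. Own-strand counts for every gene, the own-strand library sum, leaving out the members read on the opposite strand and taking the median level from 1 library were alternatives chosen after seeing the data. No paired analysis was possible because the design has 1 group. With 2 libraries, the spread between pools rests on 1 difference per gene.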

Other observations

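A further 3 annotated miRNA genes lay inside the cluster's span or just behind it and were not members. Mir496a (chromosome 12, positions 109739119 to 109739197), between Mir154 and Mir377, had 640 and 811 counts, or 134 and 135 CPM. Mir3072, downstream of Mir410, had 338 and 390 counts, or 70.6 and 64.8 CPM. Gm27379, between Mir539 and Mir544, had 7 and 4 counts. The letters TCAGTATC occurred in the hairpins of 6 of the 36 listed genes (16.7%), Mir411, Mir758, Mir329, Mir487b, Mir369 and Mir376b, and in 4 of 2166 other mouse hairpins (0.185%). These letters were picked after the sequences had been read and were searched on the hairpin strand only. The detected genes with them ranged from Mir487b at 9082 CPM to Mir758 at 59.2 CPM.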
